A study of Mus musculus with 6 samples.

Results

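The tdTomato-positive cells of the p16-DTR lungs were the barcodes of the 3 p16-DTR libraries that held at least 1 tdTomato UMI (a unique molecular identifier, which counts 1 captured RNA molecule). Members had to pass the filter applied to every barcode, which removed those with under 300 genes, under 500 UMIs or a mitochondrial share of over 15%. There were 250 of them among 45200 retained barcodes of these libraries, and the whole series held 91156 retained barcodes. The p16-DTR libraries contributed 86, 73 and 91 positive barcodes from mice 1, 2 and 3. Members were chosen by their tdTomato UMI count, so tdTomato values are given as a description and carry no test.

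The lungs came from 6 male C57BL/6 mice aged 21 months. The 3 p16-DTR mice were p16-CreERT2/R26-LSL-DTR, and the 3 controls were p16-CreERT2 without the DTR allele. Both groups received tamoxifen (TAM) for 5 days, were left for 2 weeks, received diphtheria toxin (DT) for 5 days and were taken 2 weeks later. Each library came from 1 mouse and mixed 20000 CD45-negative with 9000 CD45-positive sorted cells, so shares of immune and non-immune barcodes partly reflect that mixture. The labels name a p16-CreERT2 and an R26-LSL-DTR allele and no tdTomato allele, while the count tables hold 1 tdTomato feature. The receptor transgene itself has no feature of its own among the 31054 listed.

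As background, p16 is the INK4 inhibitor encoded by Cdkn2a. It binds the cyclin-dependent kinases that phosphorylate RB and so holds cells in G1, and it accumulates in senescent cells of aged tissue. CreERT2 is a recombinase that enters the nucleus on tamoxifen, and a loxP-stop-loxP (LSL) cassette at Rosa26 (R26) keeps a transgene silent until the recombinase removes the stop. DTR is the primate form of HB-EGF, which binds diphtheria toxin far better than the mouse protein does. Cells that express it are killed by the toxin, and cells read here were those present after the recovery period. tdTomato is a red fluorescent protein often used to mark recombined cells.

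The libraries held between 254200305 and 344421685 UMIs, with medians of 17091 to 18495.5 UMIs per retained barcode. tdTomato UMIs numbered 89, 75 and 94 in the p16-DTR libraries and 0 in each of the 3 control libraries. Of the 75 in p16-DTR mouse 2, 1 lay in a barcode that failed the filter. Between 55 and 90 cell barcodes were shared by each of the 15 pairs of libraries, and 4 of the 250 member barcodes also occurred in another library.

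Most positive barcodes held a single tdTomato molecule. In the 3 libraries, 83, 72 and 88 barcodes had exactly 1 tdTomato UMI and 3, 1 and 3 barcodes had 2, and none had more. The 257 retained tdTomato UMIs amounted to 0.292 CPM, or UMIs of a gene per 1000000 UMIs (exact 95% Poisson interval 0.257 to 0.330, counting error only). At each library's own rate per UMI, 1.09 barcodes would hold 2 or more tdTomato UMIs, against 7 observed. That rate comes from the same tdTomato UMIs, so the 2 numbers are a description and no test. The 7 barcodes with 2 UMIs were 4 alveolar fibroblasts, 2 general capillary endothelial cells and 1 CD4 T cell, with 12789 to 31994 UMIs each. None of them held a Cdkn2a UMI, and 1 was a predicted doublet. The members just inside the threshold thus have 1 UMI and those just outside have 0, and a tdTomato-zero barcode is one in which no transcript was captured, not a cell known to lack the transgene.

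tdTomato was seen more often in barcodes with more UMIs. In the lowest of 5 equal groups of barcodes by depth (501 to 10060 UMIs), 0.111% were positive, and in the highest (27330 to 229898 UMIs), 1.13% were. Per 1000000 UMIs, the same groups gave 0.241 (0.115 to 0.442) and 0.289 (0.236 to 0.3502) tdTomato UMIs, and the 3 groups between them gave 0.369, 0.268 and 0.282. The share therefore was highest in the deepest group and lowest in the shallowest, while the 5 rates had overlapping intervals. Positive barcodes had a median of 23305 UMIs and 5046.5 genes, against 17230 UMIs and 4436.5 genes in all tdTomato-zero barcodes. Comparisons below therefore used, for each positive barcode, the 10 tdTomato-zero barcodes of the same library and class nearest in depth, 2493 in all, which had a median of 23359 UMIs.

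**Figure D1:**
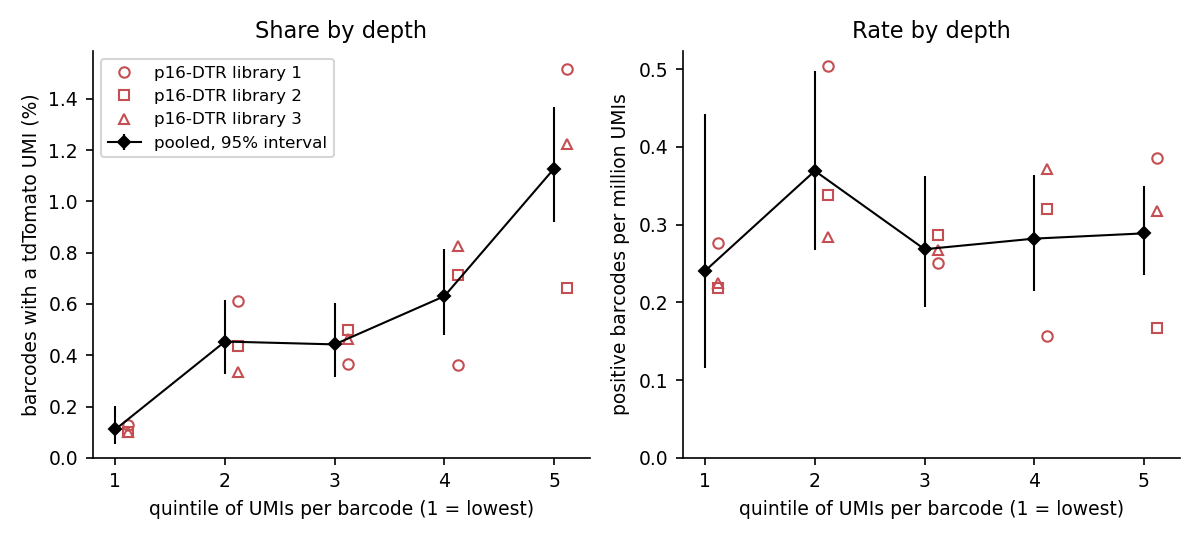
tdTomato detection by sequencing depth in the 3 p16-DTR libraries, with barcodes divided into 5 equal groups by total UMIs (x axis). The left panel gives the percentage of barcodes with a tdTomato UMI, which runs from 0.111% to 1.13% in the pooled libraries. The right panel gives tdTomato UMIs per 1000000 UMIs, which stays between 0.241 and 0.369, although its axis label reads positive barcodes. Diamonds are pooled values with exact 95% intervals and open symbols are single libraries.

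The quality of the positive barcodes lay closer to these matches than to all tdTomato-zero barcodes. Matching was by class and depth, with each unnamed cluster taken as a class, so this closeness was partly set by the matching. Predicted doublets made up 12.0% of positives, 11.6% of matches and 6.00% of all tdTomato-zero barcodes. Barcodes with markers of more than 1 lineage were 19.2%, 19.1% and 13.8% of the same sets. Median mitochondrial shares were 1.44%, 1.46% and 1.42%.

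Barcodes with a tdTomato UMI fell in all main lineages of the lung. Nearly all of them held a single UMI, and the part of free RNA in the droplets in these UMIs was not tested. Classes were named from marker genes after clustering all barcodes. Endothelial barcodes held 74 members (22, 27 and 25 by mouse) and mesenchymal barcodes 75 (25, 21 and 29). Lymphoid barcodes held 45 (16, 13 and 16), myeloid 17 (10, 1 and 6) and epithelial 9 (3, 2 and 4), and 30 fell in clusters with no lineage. Most of these 30 were predicted doublets, and they entered the sums over all lineages. tdTomato levels were 0.301 CPM in endothelial, 0.334 in mesenchymal, 0.407 in lymphoid, 0.233 in epithelial and 0.114 in myeloid barcodes. The exact 95% intervals, which cover counting error in the pooled UMIs and not the spread between mice, were 0.237 to 0.376 in endothelial, 0.264 to 0.416 in mesenchymal, 0.298 to 0.543 in lymphoid and 0.0662 to 0.182 in myeloid barcodes. The myeloid value was uneven across mice, at 0.195, 0.0220 and 0.113 CPM.

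Barcodes with under 5000 UMIs were left out (5200 of 45200), and the other 40000 were thinned to 5000 UMIs. Of these, 0.152% ± 0.0083 (SD, n = 3 libraries) were positive. The thinned share was 0.156% ± 0.0208 in endothelial, 0.156% ± 0.0373 in mesenchymal and 0.147% ± 0.0307 in epithelial barcodes. It was 0.241% ± 0.0884 in lymphoid and 0.0604% ± 0.0473 in myeloid barcodes. The lymphoid share was above the endothelial share in each of the 3 libraries (0.342%, 0.181% and 0.198% against 0.148%, 0.180% and 0.140%), by very little in mouse 2. In mouse 2 the order turned when barcodes were thinned to 2000 UMIs (0.0675% against 0.0687%) or predicted doublets were left out (0.181% against 0.186%).

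Among endothelial classes, general capillary cells, the progenitor-like capillary type marked by Gpihbp1 and Plvap, held 32 members at 0.349 CPM. Arterial cells held 9 (0.329), venous cells 8 (0.332) and aerocytes, the Car4-marked capillary type of the gas-exchange surface, 6 (0.230, interval 0.0846 to 0.502). Lymphatic endothelial cells held 3 (0.317). These 5 rates had overlapping intervals. Unnamed endothelial clusters held a further 10, 4 and 2 members, and the best-scoring class of each of these clusters was general capillary. Aerocytes carried the most Cdkn2a RNA of the 24 named classes with at least 200 barcodes, 41.0 CPM, against 3.82 in general capillary cells. The aerocyte tdTomato rate rested on 6 UMIs, and its interval covers the rate of general capillary cells. Whether aerocytes lay above or below general capillary cells therefore could not be told.

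Among mesenchymal classes, alveolar fibroblasts, the lipid- and matrix-handling stromal cells of the alveolus, held 46 members at 0.333 CPM, spread as 16, 13 and 17 over the mice. Adventitial fibroblasts, which surround vessels and airways, held 17 at 0.454 (0.265 to 0.727). A further 12 members lay in an unnamed mesenchymal cluster. No tdTomato UMI was found in 473 peribronchial fibroblasts, where a count of 0 allows a share of up to 0.634%, which is above the 0.553% of all barcodes. Such limits apply to barcodes with a captured UMI, not to cells that carry the transgene. None was found in 243 pericytes or 214 smooth muscle cells either, with limits of 1.23% and 1.40%.

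Among lymphoid classes, B cells had the highest rate of the 24 classes, 0.644 CPM (0.412 to 0.958). Their 24 members came from mice 1, 2 and 3 as 7, 8 and 9, at 0.778, 0.643 and 0.568 CPM, each above the rate of its whole library (0.314, 0.2502 and 0.312). CD4 T cells held 11 members (0.447) and CD8 T cells 6 (0.191, with 0.149, 0.191 and 0.211 by mouse). Natural killer cells held 2.

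Myeloid classes had few members. Classical monocytes held 10, of which 7 came from mouse 1. No tdTomato UMI was found in 1946 neutrophils (limit 0.154%), in which 5.82 UMIs would lie at the library rates. None was found in 380 interstitial macrophages (limit 0.789%) or in 233 type 1 conventional dendritic cells (limit 1.29%). None was found in 141 alveolar macrophages (limit 2.13%), which were shallow, with a median of 3096 UMIs. Neutrophils had a median of 9437 UMIs and a Cdkn2a rate of 1.79 CPM. Across the 24 classes, tdTomato and Cdkn2a rates had a Pearson r of 0.269 and a Spearman rho of 0.414. Classes share libraries, and 7 of the 24 hold no member, so this correlation is a description.

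**Figure D2:**
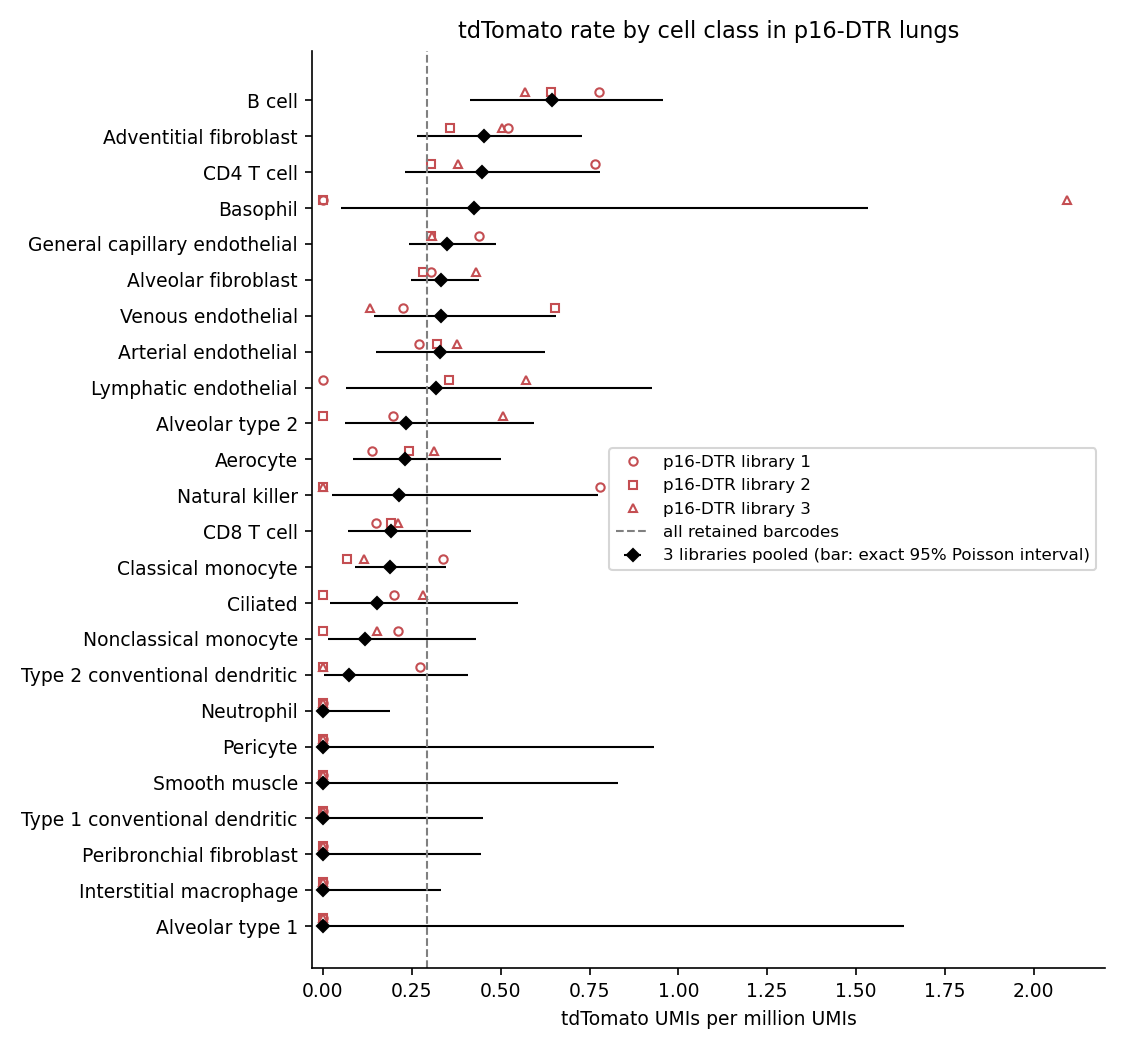
tdTomato CPM (x axis) in the 24 named cell classes with at least 200 barcodes in the p16-DTR libraries. Black diamonds pool the 3 libraries with exact 95% Poisson intervals, open red symbols are single libraries and the dashed line is the rate over all barcodes, 0.292; B cells are highest at 0.644 and 7 classes, among them neutrophils, are at 0.

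Members carried most markers of the classes they were placed in. Among the 46 alveolar fibroblast members, 6 of 6 class markers were found in at least 89.13% of barcodes, including Npnt and Ces1d in every one. Cd79a and Pax5 were found in all 24 B cell members, and the other 4 B cell markers in 79.17% or more. Gpihbp1, Plvap, Kit and Sema3c were found in all 32 general capillary members, whereas Aplnr was found in 37.5%. In the 9 arterial members Efnb2 and Hey1 were always present and Dkk2 was in none. Mgp was present in 22.22% of them, against 80.68% of members of other lineages. Ackr1 was present in 12.5% of the 8 venous members. These genes were also used for clustering, so their presence describes the classes and tests nothing.

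The gene whose promoter drives the recombinase is Cdkn2a (ENSMUSG00000044303, chromosome 4, 89274471 to 89294653 in GRCm38), and it was examined first. Counts per gene do not separate its p16 and ARF transcripts. In positive barcodes, a Cdkn2a UMI was present in 17.4%, 16.4% and 9.89% of barcodes in mice 1, 2 and 3. In the matched tdTomato-zero barcodes of the same mice, it was present in 10.0%, 11.6% and 10.3%. Positives were thus higher in mice 1 and 2 and level in mouse 3. Pooled, 36 of 250 positives (14.4%, exact 95% interval 10.3% to 19.4%) and 264 of 2493 matches (10.6%, 9.41% to 11.9%) held a Cdkn2a UMI.

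The summed levels of Cdkn2a were 16.5, 8.21 and 5.29 CPM in positives and 7.62, 8.48 and 6.83 CPM in matches. Positives were therefore higher in 1 of 3 mice only. The log2 fold change was 0.33 (SE 0.32, unadjusted p = 0.336, adjusted p = 0.951, edgeR quasi-likelihood test paired by library), so a difference was not detected. Of 69 Cdkn2a UMIs in positives, 1 barcode held 20.3%. Without mouse 1 the estimate turned to -0.18.

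By lineage, Cdkn2a was detected in 6.76% of endothelial positives and 6.22% of their matches. In mesenchymal barcodes it was detected in 24.0%, 14.3% and 3.45% of positives by mouse against 7.60%, 11.9% and 7.93% of matches, which overlap. In lymphoid barcodes it was detected in 18.8%, 30.8% and 37.5% of positives against 13.8%, 13.8% and 20% of matches, higher in 3 of 3 mice. Pooled, this was 13 of 45 lymphoid positives (28.9%, 16.4% to 44.3%) against 72 of 450 matches (16%, 12.7% to 19.7%). The exact two-sided sign permutation over 3 library differences gave p = 0.25, which is the smallest it can give. The edgeR estimate in lymphoid barcodes was a log2 fold change of 0.77 (SE 0.43, adjusted p = 0.977), so this difference did not pass.

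Barcodes of the control libraries, matched to the positives by class and depth, held a Cdkn2a UMI in 1.32%, 2.04% and 2.04%. The shares over all classes in the p16-DTR libraries, of positives and of tdTomato-zero matches alike, lay above these. Positives exceeded controls by a log2 fold change of 2.52 (SE 0.67, unadjusted p = 0.00635, adjusted p = 0.556), with 9.99 ± 5.80 CPM against 1.79 ± 1.31 CPM (SD, n = 3 each). The tdTomato-zero matches stood at 7.64 ± 0.829 CPM. In the myeloid and epithelial control matches no Cdkn2a UMI was found in 171 and 90 barcodes.

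**Figure D3:**
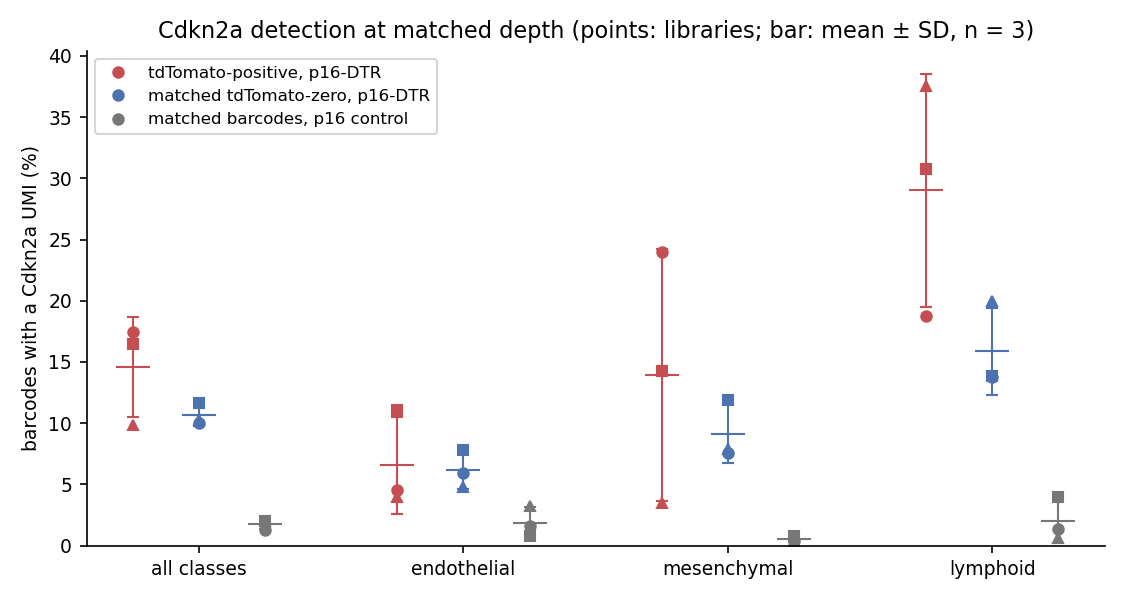
Percentage of barcodes with a Cdkn2a UMI (y axis) in tdTomato-positive barcodes, their depth- and class-matched tdTomato-zero barcodes and matched barcodes of control libraries, for all classes and 3 lineages. Each point is 1 library and bars are mean ± SD over 3 libraries; positives and matches overlap in all classes together (9.89% to 17.4% and 10.0% to 11.6%), and controls lie at 1.32% to 2.04%.

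The other INK4 and CIP/KIP inhibitors showed no called difference in all lineages together. Cdkn2b, the INK4 gene beside Cdkn2a, stood at 6.01 ± 3.24 CPM in positives and 7.99 ± 2.50 CPM in matches (SD, n = 3), a log2 fold change of -0.46 (SE 0.31). In endothelial barcodes the values were 7.16 ± 2.87 and 17.6 ± 9.05 CPM, lower in 3 of 3 mice, with a log2 fold change of -1.22 (SE 0.47, adjusted p = 0.76). Cdkn1a, which encodes p21, was present in 67.6% of positives and 67.0% of matches, with a log2 fold change of 0.09 (SE 0.08, adjusted p = 0.942). The lists of 4 INK4, 3 CIP/KIP, 11 RB pathway and 20 p53 target genes gave no call in all lineages, endothelial, mesenchymal or lymphoid barcodes, with 4, 3, 11 and 19 genes tested in all lineages. Over all genes, 0.0201%, 0.232%, 0.0172% and 0.0333% were called in the same comparisons, so few calls would fall in such lists.

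The mouse's own Hbegf, the gene for the growth factor whose primate form serves as the toxin receptor, gave 11.7, 24.1 and 16.7 CPM in positives and 11.6, 14.3 and 10.7 CPM in matches. Over all lineages it was higher in 3 of 3 mice, by very little in mouse 1, with a log2 fold change of 0.49 (SE 0.20, unadjusted p = 0.0442, adjusted p = 0.872). Of the 114 Hbegf UMIs, 1 barcode held 18.4%. With matches drawn from the broad lineage instead of the class, the estimate was -0.02. Lymphoid and myeloid positives held no Hbegf UMI, against 4.95 ± 3.49 CPM in lymphoid and 0.995 ± 1.72 CPM in myeloid matches (SD, n = 3). A mean of 3.21% of lymphoid and 2% of myeloid matches held one. A count of 0 in 45 lymphoid and 17 myeloid positives could not be told apart from these shares. In epithelial barcodes, which were 9 positives and not tested, a Hbegf UMI was present in 88.9% ± 19.2 of positives and 29.7% ± 15.9 of matches, higher in 3 of 3 mice, and the levels were 112 ± 96.4 and 48.9 ± 4.69 CPM, higher in 2 of 3. Endothelial levels were 32.0 ± 12.9 against 23.0 ± 1.38 CPM and mesenchymal levels 2.91 ± 1.97 against 2.42 ± 0.778 CPM, each higher in 2 of 3 mice. The transcript at the Rosa26 locus, Gt(ROSA)26Sor, was at 13.1 ± 3.18 CPM in positives and 11.4 ± 0.909 CPM in matches (log2 fold change 0.18, SE 0.20, adjusted p = 0.952). Its neighbours Thumpd3 and Setd5 had log2 fold changes of -0.04 and 0.04 over all lineages. In lymphoid barcodes Thumpd3 was at 12.8 ± 5.93 CPM in positives and 38.8 ± 3.19 CPM in matches (SD, n = 3), lower in 3 of 3 mice, and did not pass (log2 fold change -1.63, SE 0.42, adjusted p = 0.838). In epithelial barcodes, which were too few to test, Thumpd3 was at 26.9 ± 4.46 against 14.8 ± 2.37 CPM, and in myeloid barcodes, also untested, at 45.1 ± 19.3 against 20.3 ± 6.47 CPM, higher in 3 of 3 mice in both. The positive sums rested on 3, 2 and 4 epithelial and 10, 1 and 6 myeloid barcodes by mouse, so their SDs join sums of unlike size. The share of all genes that went 1 way was not computed in either lineage. The lymphoid Thumpd3 difference was set against those of endothelial and mesenchymal barcodes by an interaction term of edgeR's quasi-likelihood test, which did not pass (endothelial minus lymphoid 1.90, adjusted p = 0.33, and mesenchymal minus lymphoid 1.93, adjusted p = 0.224). Mtap, which encodes an enzyme of methionine salvage and lies near Cdkn2a, was at 22.9 ± 3.23 CPM in positives and 23.9 ± 1.88 CPM in matches (log2 fold change -0.04, SE 0.14, adjusted p = 0.994). In the untested lineages Mtap was at 26.1 ± 8.86 against 17.5 ± 2.50 CPM in myeloid barcodes, higher in 3 of 3 mice, and at 12.2 ± 4.66 against 15.7 ± 7.51 CPM in epithelial barcodes, lower in 3 of 3 mice. These Mtap values rest on the same few positives.

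Across all lineages, few genes separated positives from matches. Of 14920 genes tested, 3 were called, all lower in positives (0.0201% of genes, edgeR quasi-likelihood test, Benjamini-Hochberg adjusted p under 0.05), and 842 had an unadjusted p under 0.05 (5.64%). The 3 libraries differed in the same direction for 26.9% of genes. The median log2 fold change over all genes was -0.01.

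Each of the 3 called genes was held largely by 1 secretory airway or plasma cell barcode among the matches. Ltf, encoding lactoferrin, had 3125 UMIs in matches, 88.5% of them in 1 secretory airway barcode, and 23 UMIs in positives (log2 fold change -3.75, SE 0.21, adjusted p = 0.0019). Ighg2b had 16133 UMIs in matches, 92.3% of them in 1 plasma cell barcode, and 137 in positives, 89.1% of them in 1 plasma cell barcode (log2 fold change -3.44, adjusted p = 0.0345). Ighg2c had 21971 UMIs in matches, 65.5% of them in 1 plasma cell barcode, and 8 in positives (log2 fold change -8.10, adjusted p = 0.0054). The immunoglobulin constant genes are related in sequence, and any splitting of their reads in counting was not tested. Without predicted doublets, the Ighg2b and Ighg2c estimates fell to -1.15 and -1.39 and were no longer called. Without mouse 1 they were -1.46 and -1.56 and were not called either.

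No gene was called higher in all lineages together in the main edgeR quasi-likelihood test on all 3 mice. Some other settings gave calls in both directions: DESeq2 called 11 higher and 9 lower, omission of mouse 1 gave 40 higher and 53 lower, and omission of mouse 3 gave 53 higher and 40 lower. Without a filter on low counts 26 were higher and 52 lower, and with matches of the same broad lineage 1 was higher and 6 lower. In the main fit, the genes with the smallest p toward higher values included Gria3, an AMPA receptor subunit. Gria3 was at 358, 387 and 520 CPM in positives against 235, 250 and 377 CPM in matches (log2 fold change 0.57, SE 0.06, adjusted p = 0.0609). Thbs1, encoding the matrix protein thrombospondin, was at 642, 498 and 763 CPM against 468, 388 and 584 CPM (log2 fold change 0.41, SE 0.05, adjusted p = 0.115). In both genes the 2 groups overlapped, and each mouse had the higher value in its positives. Cadm2, an adhesion gene, had a log2 fold change of 1.72 (SE 0.19, adjusted p = 0.0779), with 27.3% of its 216 UMIs in 1 positive barcode. Toward lower values, Col3a1, a fibrillar collagen, and Kdr, the VEGF receptor of endothelium, had log2 fold changes of -0.43 and -0.43 and adjusted p of 0.193 and 0.261.

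Endothelial positives gave more calls, and these included immediate-early genes. Of 10341 genes, 10 were called higher (0.0967%) and 14 lower (0.135%), together 0.232% of genes (edgeR quasi-likelihood test paired by library). The 3 libraries differed 1 way, or the groups did not overlap, for 26.1% of genes. Immediate-early genes are transcribed within minutes of stimulation, and also during tissue digestion, which lasted 1 h here for every library. The list used joins immediate-early genes with dissociation genes, among them heat-shock chaperone genes such as Hspa1a and Dnajb1. Of its 24 tested genes, 4 rose and none fell, 15 had an unadjusted p under 0.05 (5.32% of all genes had one) and 19 had estimates above 0. The list's median log2 fold change was 0.27, against -0.01 over all genes. In all lineages together 22 of 25 estimates were above 0, with a median of 0.13 and none called, and 10 had an unadjusted p under 0.05 (5.64% of all genes). In mesenchymal barcodes 16 of 25 were above 0, with a median of 0.04, and 5 had an unadjusted p under 0.05 (5.93% of all genes). In lymphoid barcodes 17 of 22 were above 0, with a median of 0.19, and 2 had an unadjusted p under 0.05 (4.75% of all genes). None was called in either lineage. The 12 listed markers of blood, epithelial and mesenchymal cells summed to 182.5, 189.3 and 129 CPM in endothelial positives and 153.9, 175.1 and 151.8 CPM in their matches, higher in 2 of 3 mice. Cd3e, Epcam and Hba-a1 were at 0 in these positives and at 0.686, 0.0848 and 0.0697 CPM in matches, too low to tell the groups apart.

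Egr1, an immediate-early transcription factor, was at 486, 691 and 758 CPM in endothelial positives and 269, 501 and 361 CPM in their matches. The groups overlapped and each mouse was higher in positives, with a log2 fold change of 0.81 (SE 0.11, adjusted p = 0.0024). An Egr1 UMI was present in 74.3% of positives and 56.5% of matches. Zfp36, encoding the mRNA-destabilising protein tristetraprolin, was at 442, 547 and 539 CPM against 292, 385 and 322 CPM (log2 fold change 0.63, SE 0.10, adjusted p = 0.0095). Every positive value of Zfp36 lay above every match value. Junb, an AP-1 subunit, and Ier3, a stress-response gene that limits apoptosis, had log2 fold changes of 0.50 (adjusted p = 0.0181) and 0.49 (adjusted p = 0.0184).

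A further 6 genes rose in endothelial positives. Iigp1, an interferon-inducible GTPase, was at 271, 381 and 236 CPM against 159, 179 and 143 CPM, with no overlap (log2 fold change 0.89, SE 0.12, adjusted p = 0.0024). Casp4, the caspase that senses cytosolic lipopolysaccharide, was at 111, 122.7 and 154 CPM against 57.3, 74.0 and 47.3 CPM (log2 fold change 1.15, SE 0.19, adjusted p = 0.0101). Rnf122, a ubiquitin ligase gene, was at 74.0, 49.9 and 61.4 CPM against 27.0, 22.4 and 21.5 CPM (log2 fold change 1.40, SE 0.24, adjusted p = 0.0101). Sbno2, Slc25a25 and Zcchc6 had log2 fold changes of 0.64, 0.80 and 0.53. One barcode held 19.1% of the 408 Iigp1 UMIs of positives, and 5.71% to 15.5% for the other 9 genes. Iigp1 was the only one of 24 tested interferon genes called (0.232% of all genes were), and 18 of the 24 had estimates above 0 with a median of 0.20.

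**Figure D4:**
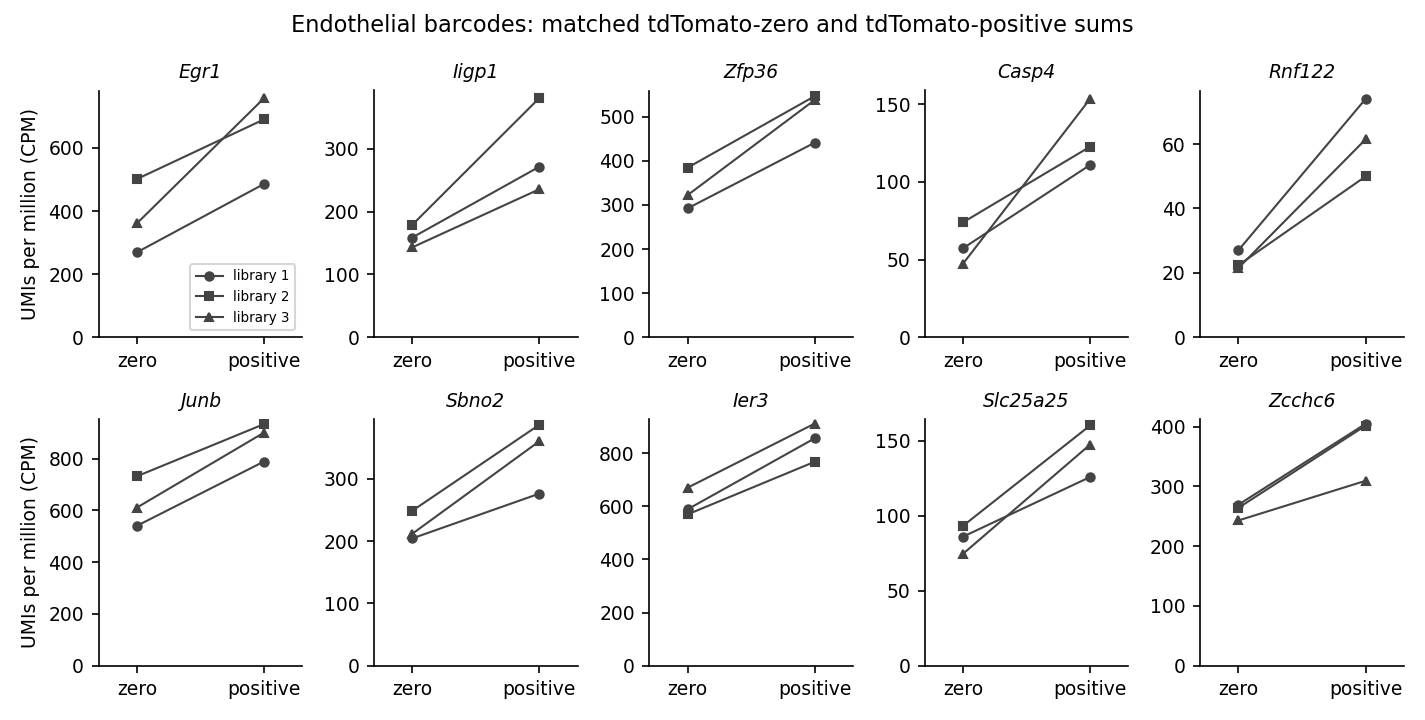
Levels in CPM (y axis) of the 10 genes called higher in endothelial tdTomato-positive barcodes, in the matched tdTomato-zero sum and the positive sum of each p16-DTR library. Lines join the 2 sums of 1 library (mouse); every line rises, for example from 269, 501 and 361 to 486, 691 and 758 CPM for Egr1.

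The 14 genes called lower in endothelial positives included genes found in few barcodes. None of the 20 genes of the capillary endothelial list was among them (0.135% of all genes were called lower), and 10 of those 20 had estimates above 0. Mgp, encoding an inhibitor of calcification made by arterial endothelium (chromosome 6, 136872435 to 136875823), was at 34.5, 49.9 and 18.4 CPM in positives and 64.1, 262 and 213 CPM in matches. The groups did not overlap, with a log2 fold change of -2.36 (SE 0.27, adjusted p = 0.0003). Of the 2537 Mgp UMIs of matches, 22.3% lay in 1 arterial barcode. Vegfc, the lymphangiogenic growth factor made by venous endothelium, was at 155, 208 and 156 CPM against 329, 344 and 229 CPM (log2 fold change -0.77, SE 0.13, adjusted p = 0.0122). Plat, which encodes tissue plasminogen activator, Mecom, a transcription factor, and Bmx, a kinase of arterial endothelium, had log2 fold changes of -0.81, -0.97 and -1.41. Fabp4, Cytl1, Cdh13, Efna5 and Pde1a had only 3 to 16 UMIs in positives. The matching by class fixed the class makeup of the matches, with arterial cells at 12.2% of both groups. It did not fix the makeup by cluster within a class.

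When matches were drawn from the same cluster rather than the same class, 7 of the 10 genes called higher remained called (Egr1, Iigp1, Zfp36, Casp4, Rnf122, Junb and Sbno2), with log2 fold changes of 0.51 to 1.42. Of the 14 called lower, only Vegfc remained, at -0.77, and Mgp moved to -0.71 (adjusted p = 0.684). In the fit without the library block none of the 24 was called, although all 24 kept their direction. Leaving out 1 mouse at a time kept 7 to 9 of the 10 called higher and 10 to 12 of the 14 called lower. Matches of the same broad lineage kept 4 of the 10 and 2 of the 14, DESeq2 kept 8 and 3, and 5 matches per positive kept 8 and 7.

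Mesenchymal positives gave 2 calls among 11622 genes (0.0172%), 1 in each direction (0.0086% each). The 3 libraries differed 1 way, or the groups did not overlap, for 27.9% of genes. Ank3, encoding the membrane scaffold ankyrin-G, was at 47.3, 71.9 and 43.9 CPM in positives and 8.35, 11.5 and 4.39 CPM in matches, with no overlap (log2 fold change 2.84, SE 0.26, adjusted p = 0.0045). Only 7 of 75 positives held an Ank3 UMI, and 1 of them, an adventitial fibroblast barcode, held 31.9% of the 116 UMIs. Ank3 was among the 10 leading genes of the alveolar type 2 cluster, and alveolar type 2 barcodes of these libraries had 3467, 3833 and 3484 CPM, against 35.9, 35.3 and 70.1 CPM in adventitial fibroblasts. The 6 alveolar type 2 markers summed to 79.3, 77.1 and 85.5 CPM in mesenchymal positives and 86.6, 108.6 and 98.4 CPM in matches, lower in 3 of 3 mice, and Lamp3 was at 0 against 0.67 CPM. With matches of the same cluster its log2 fold change was 1.61 (adjusted p = 0.0619) and the call was lost. Saa3, an acute-phase serum amyloid gene, had no UMI in positives and 638 in matches, 56.7% of them in 1 barcode. Set against a floor of 3 UMIs over the group, it was at least 21.3-fold lower in positives (adjusted p = 0.0259), and it was not called without mouse 2.

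The class II antigen presentation genes, which stromal cells normally express little, all had estimates above 0 in mesenchymal positives, where 4 of the 7 on the list could be tested and all 4 had an unadjusted p under 0.05, as did 5.93% of all genes. Cd74, the class II invariant chain, was at 72.3, 22.3 and 73.5 CPM against 15.5, 16.8 and 16.5 CPM (log2 fold change 1.79, SE 0.31, adjusted p = 0.0947), which did not pass. H2-Ab1 had a log2 fold change of 1.97 (SE 0.39, adjusted p = 0.181). Of the 132 Cd74 UMIs, 44.7% lay in 1 barcode, and a Cd74 UMI was present in 29 of 75 positives and 238 of 750 matches. In endothelial barcodes 1 of 7 estimates was above 0 (median -0.23, 3 at an unadjusted p under 0.05), in lymphoid barcodes 6 of 7 (median 0.09) and in all lineages together 0 of 7 (median -0.10), with none called. The immune marker Ptprc moved with the mesenchymal difference, at 9.39 against 3.77 CPM (log2 fold change 1.36, adjusted p = 0.726), and its part in the result was not tested. The B cell gene Cd79a was at 4.20 against 2.74 CPM, higher in 3 of 3 mice. The myeloid genes Lyz2 and S100a8 were at 27.4 against 29.8 and 11.6 against 11.7 CPM, and the T cell gene Cd3e, at 0.366 against 0.2695 CPM, was higher in 1 of 3 mice. The 12 listed markers of blood, epithelial and endothelial cells summed to 126.6, 137 and 160.1 CPM in positives and 161.5, 176.2 and 150.5 CPM in matches and were higher in 1 of 3 mice. Epcam, Hba-a1 and Hbb-bs were at 0 in positives and at most 0.114 CPM in matches, too low to tell the groups apart. Among the 20 extracellular matrix genes none was called (0.0172% of all genes were), with Vcan at -0.94 and Col3a1 at -0.35 (adjusted p = 0.192 and 0.344).

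Lymphoid positives gave 3 calls among 9011 genes (0.0333%), all lower, and the 3 libraries differed 1 way, or the groups did not overlap, for 25.9% of genes. Of these, Ighg2b and Ighg2c rested on plasma cell barcodes, with 94.4% and 65.8% of match UMIs in 1 barcode each. Neither was called without mouse 1 (adjusted p = 0.61 and 1) or without mouse 3 (adjusted p = 0.0917 for both). Of the 3 genes, 1 stayed called without mouse 1, 1 without predicted doublets and 0 without mouse 3, where the only call was another gene, higher in positives. Of the 20 proliferation genes, 11 could be tested in lymphoid barcodes and none was called, with 10 estimates below 0, a median log2 fold change of -1.18 and 2 at an unadjusted p under 0.05 (4.75% of all genes had one). Their summed levels overlapped, at 491.4 to 674.3 CPM in positives and 621.1 to 933.2 CPM in matches. Mki67, a marker of cycling cells, was at 18.1 against 40.6 CPM (log2 fold change -1.23, SE 0.37, adjusted p = 0.957). Apoe was at 462, 546 and 139 CPM in lymphoid positives and 44.9, 102 and 91.5 CPM in matches (log2 fold change 2.21, SE 0.40, adjusted p = 0.353), with 46.1% of its 330 UMIs in 1 barcode. The 11 listed markers of myeloid, red blood, endothelial, epithelial and mesenchymal cells summed to 574.9, 449.7 and 554.6 CPM in lymphoid positives and 418.9, 405.1 and 480.2 CPM in matches, higher in 3 of 3 mice. Lyz2, a myeloid gene, was at 48.0 against 39.8 CPM and Pecam1, an endothelial gene that some blood cells also express, at 322 against 250.4 CPM, both higher in 3 of 3 mice. The endothelial gene Cdh5 had a higher mean in positives, 37.1 against 8.60 CPM, but was higher in 1 of 3 mice. The other myeloid gene, S100a8, was at 12.1 against 12.8 CPM, and Epcam (4.82 against 7.97), Sftpc (73.5 against 77.1), Scgb1a1 (26.5 against 31.4) and Col1a2 (1.99 against 2.89) also had lower means in positives. Col3a1 was at 0 against 3.66 CPM, and Hba-a1 and Hbb-bs were at 0 in positives and at 0.10 and 0 CPM in matches. The 5 tested capillary endothelial genes also had estimates above 0 there (median 1.35, none called), with summed levels of 274.8 to 872.8 CPM in positives and 276.5 to 347.8 CPM in matches, and the part of that signal in other results was not tested.

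Genes of the senescence secretory programme had more estimates below than above 0 in all lineages together. Of 38 tested in all lineages, none was called, 7 had an unadjusted p under 0.05 (5.64% of all genes had one), 8 had estimates above 0 and the median log2 fold change was -0.13, against -0.01 over all genes. Timp1, a metalloproteinase inhibitor, was at 14.4 against 24.7 CPM (log2 fold change -0.77, SE 0.14, adjusted p = 0.371), and Il1b at 138 against 196 CPM (log2 fold change -0.74, SE 0.18, adjusted p = 0.524). In endothelial barcodes 22 could be tested, 12 had estimates above 0 with a median of 0.02, and 1 fell, Igfbp5, an insulin-like growth factor binding protein (log2 fold change -1.80, SE 0.34, adjusted p = 0.02). In its positives 84.6% of the 39 Igfbp5 UMIs lay in 1 barcode, and the call was lost with 5 or with 20 matches per positive. Neither the 14 BCL2 family genes nor the 14 chaperone genes gave a call in any paired comparison. Over all genes, 0.0172% to 0.232% were called there, so few calls would fall in lists of this size.

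**Figure D5:**
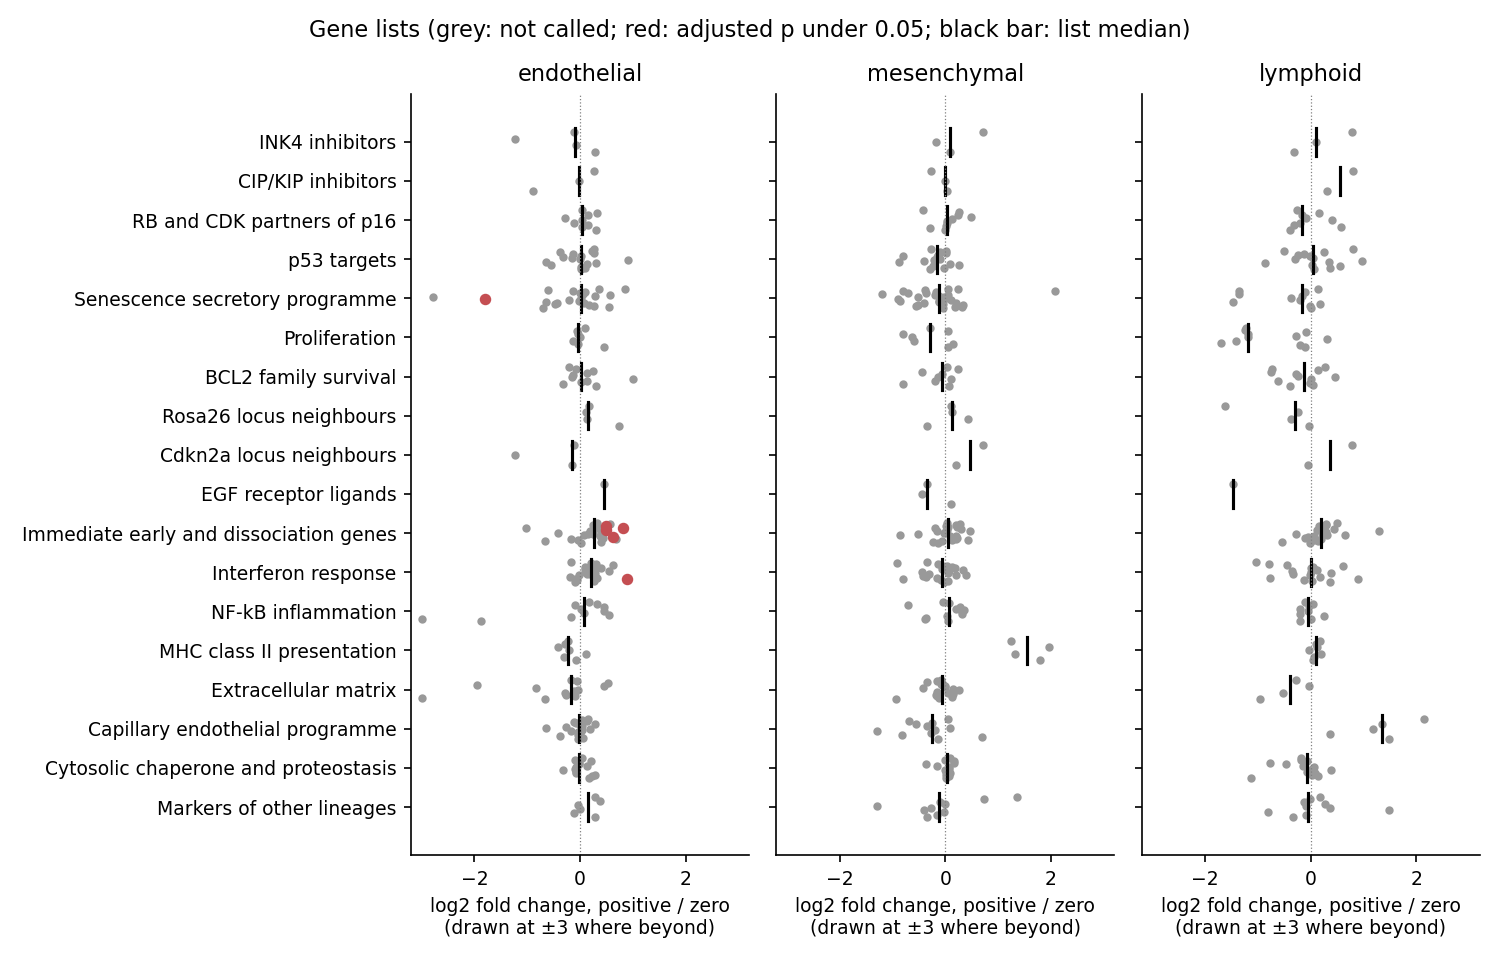
Log2 fold changes (x axis, tdTomato-positive over matched tdTomato-zero) of the genes of 18 lists in endothelial, mesenchymal and lymphoid barcodes, drawn at 3 or -3 where they lie beyond. Each point is a gene, red points were called and black bars are list medians; red points appear only in the endothelial panel, 4 of them among immediate-early genes, and the mesenchymal class II median is 1.55.

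Set against matched barcodes of the control libraries, no gene of 15299 was called (0%), 1165 had an unadjusted p under 0.05 (7.61%) and the 2 groups did not overlap for 15% of genes. DESeq2 called 99 genes in the same comparison. Among the genes with the smallest p, Gria3 was at 358, 387 and 520 CPM in positives and 195, 250 and 227 CPM in controls (log2 fold change 0.94, SE 0.16, adjusted p = 0.392), with no overlap. Lpl, which encodes lipoprotein lipase, had a log2 fold change of 0.88 (SE 0.15, adjusted p = 0.392). Ighm, the IgM heavy chain, was at 278 against 1638 CPM (log2 fold change -2.53, SE 0.29, adjusted p = 0.204). Of the 14 chaperone genes, 12 had estimates above 0 and 7 an unadjusted p under 0.05, with a median log2 fold change of 0.29. Hspa5, the chaperone of the endoplasmic reticulum, was at 1061 against 764 CPM (log2 fold change 0.51, SE 0.13, adjusted p = 0.547). These values contain the difference between the genotypes as well as any difference of tdTomato-positive cells, and the 2 cannot be told apart in this comparison.

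Positive sums rest on 250 barcodes and match sums on 2493, so a single barcode weighs far more in the positives.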

How the data were processed

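Whole-number UMI counts, not normalized, were deposited for each of 6 libraries, made by the authors with Cell Ranger 8.0.1 on mm10, per the submitters' processing notes and the file headers. Library construction used 10x GEM-X 3' chemistry per the labels' protocols. The members, gene lists and tests were chosen with earlier results of these data known. Barcodes with at least 300 genes, 500 UMIs and at most 15% mitochondrial UMIs were kept. They were clustered (2000 variable genes, 40 principal components, 15 neighbours, Leiden resolution 1.5) into 82 clusters, of which 30 stayed unnamed, and classes were named from marker genes. Doublets were scored against simulated doublets and kept, since the member rule has no doublet filter.

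For each member, 10 tdTomato-zero barcodes of the same library and class nearest in depth were taken, and 10 of the control libraries by class and depth. Raw counts were summed per library and tested with edgeR 4.0.16 (filterByExpr, TMM scaling, quasi-likelihood test, Benjamini-Hochberg adjustment) with library as a block, or by group against controls. A gene was called at an adjusted p under 0.05. A lineage was tested where it had at least 10 members in every library. Positive and zero sums of 1 library come from 1 mouse, and their deviations from group means correlated at 0.681 to 0.745 over all lineages, 0.323 to 0.443 in endothelial, 0.152 to 0.256 in mesenchymal and 0.173 to 0.381 in lymphoid barcodes. Alternatives included DESeq2 1.42.0. The test was checked on simulated data. CPM is UMIs per 1000000 UMIs of the summed barcodes. Exact 95% intervals and the limits for a count of 0 (3 counts) cover counting error only.

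Cdkn2a, Cdkn2b, Cdkn1a, Hbegf, the Rosa26 transcript and its neighbours and Mtap were named always. Other named genes were those called with all 3 libraries differing 1 way, up to 15 in each direction by adjusted p. Where fewer than 5 passed, up to 8 not called were eligible by unadjusted p at a mean of at least 20 CPM. Lists were described by their counts, their median and up to 4 members. Of 31054 features, 30934 matched a GENCODE M21 gene. R 4.3.3, Python 3.11.15, scikit-learn 1.9.0 and leidenalg 0.10.2 were used. Of the genes called in lymphoid barcodes, 1 is not reported here.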

Additional observations from a re-analysis of the deposited data

Results flagged for a closer look

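For Mgp and Apoe the difference between tdTomato-positive and matched tdTomato-zero barcodes itself differed between lineages, by an interaction term of edgeR's quasi-likelihood test across 12433 genes. The Mgp log2 difference in endothelial barcodes was lower than that in mesenchymal barcodes by an interaction of -2.30 (adjusted p = 0.0147). The Apoe difference was lower in endothelial than in lymphoid barcodes (-4.01, adjusted p = 0.00683) and lower in mesenchymal than in lymphoid barcodes (-2.09, adjusted p = 0.0419). With matches of the same cluster none of these passed, at -0.71 for Mgp (adjusted p = 0.741) and -2.03 and -1.36 for Apoe (adjusted p = 0.482 and 0.297). The Mgp interaction also did not pass without mouse 2 or without mouse 3 (-2.19 and -1.81, adjusted p = 0.0824 and 0.0695). The mesenchymal minus lymphoid interaction of Apoe did not pass without mouse 1 or without mouse 2 (-1.53 and -1.80, adjusted p = 0.116 and 0.138). These alternatives were chosen after seeing the data. In the main fit the remaining pairs of lineages did not pass. For Mgp they were endothelial minus lymphoid (-2.09, adjusted p = 0.128) and mesenchymal minus lymphoid (0.21, adjusted p = 0.938). For Apoe it was endothelial minus mesenchymal (-1.92, adjusted p = 0.654). Over all genes, 5, 10 and 13 interactions were called for endothelial minus mesenchymal, endothelial minus lymphoid and mesenchymal minus lymphoid. Outside the retained barcodes, 1 tdTomato UMI was found in a barcode of p16-DTR mouse 2 that failed the filter, against 0 in the control libraries.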

How the results depend on the processing

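Against main counts of 3, 24, 2 and 3 called genes in all lineages, endothelial, mesenchymal and lymphoid barcodes, the fit with no replicate block called 0 in each, and without a filter on low counts 78, 50, 131 and 77 were called. DESeq2 called 20 in all lineages, 11 in endothelial and 16 in mesenchymal barcodes. Matches of the same broad lineage gave 7, 6, 32 and 11 calls, and matches of the same cluster gave 8 in endothelial and 1 in mesenchymal barcodes. Without predicted doublets there was 1 call in all lineages and 1 in lymphoid barcodes, the stricter barcode filter left 1 in all lineages, 20 matches per positive gave 7 in mesenchymal and 5 matches gave 1 in lymphoid barcodes. Members with at least 2 tdTomato UMIs, which were 3, 1 and 3 barcodes by mouse, gave 0 calls in all lineages and in mesenchymal barcodes. Only 3412 and 2120 genes could be tested there, against 14920 and 11622, so these 0 calls say little. This setting could not be fitted in endothelial and lymphoid barcodes. Leaving out 1 library gave 5 to 93 calls in all lineages (93 without mouse 1 or mouse 3), 36 to 51 in endothelial (42 without mouse 1, 51 without mouse 3), 4 to 32 in mesenchymal (32 without mouse 3, 8 without mouse 1) and 1 to 16 in lymphoid barcodes (16 without mouse 1, 11 without mouse 2, 1 without mouse 3). Against the control libraries, where no gene was called, DESeq2 called 99 genes, 20 matches gave 2 and leaving out 1 library gave 0 to 2. Same-numbered p16-DTR and control libraries deviated with correlations of 0.0905, 0.0183 and -0.0241, and not every library correlated best with its own number. Whether same-numbered libraries of the 2 groups shared a batch was not tested. In the control comparison the replicate block also gave 0 calls, with 713 genes at an unadjusted p under 0.05 against 1165.

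The Cdkn2a difference turned to -0.18 without mouse 1 and lay between -0.18 and 0.62 over the 3 omissions. Cdkn1a turned to -0.0194 without mouse 1 (omissions up to 0.161) and to -0.86 with at least 2 tdTomato UMIs, which also gave -0.0162 against controls. Hbegf turned to -0.0214 with matches of the same broad lineage, and against controls to -0.0858 with those matches and to -0.15 without p16-DTR mouse 2, with omissions up to 0.353. None of these was called in the main test. The cause of these shifts was not tested. Of the alternatives for single genes, 381 kept direction and call status, and 130 kept direction but lost the call. The 381 include genes such as Cdkn1a and Hbegf that were called neither in the main test nor in the alternative.

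The share of positive barcodes followed the depth to which barcodes were thinned. At 2000 UMIs it was 0.0576% in all barcodes, 0.06% in endothelial, 0.0605% in mesenchymal, 0.0907% in lymphoid and 0.0555% in epithelial barcodes. At 10000 UMIs the same shares were 0.301%, 0.297%, 0.324%, 0.475% and 0.196%, and unthinned they were 0.553%, 0.478%, 0.726%, 0.653% and 0.759%, with 0.243% in myeloid barcodes. Leaving out 1 library gave 0.149% to 0.157% in all barcodes, 0.144% to 0.164% in endothelial, 0.135% to 0.168% in mesenchymal, 0.190% to 0.270% in lymphoid, 0.133% to 0.163% in epithelial and 0.0397% to 0.0862% in myeloid barcodes.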
